A study of Mus musculus with 6 samples.

Results

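A group of 255 protein-coding genes was higher in bone marrow (BM) neutrophils 1 week after tumor cell injection than in the same cells from naive mice and from mice at 3 weeks. They were chosen by their counts in these libraries. Counts were divided by the column total and scaled to CPM, the usual unit that sets every library to the same total, and a gene was kept where the mean of the one-week libraries was at least 5 CPM, where both one-week libraries lay above the other 4 libraries, and where the one-week mean was at least 1.5 times the mean of the naive and of the three-week libraries. Genes whose symbols start with Rpl, Rps, Mrp, Nduf, Cox, Hist, Mcm or Psm were left out, which removed 8. The 255 genes are part of 21213 protein-coding genes and of 38887 genes in the table. Because one-week levels selected them, their one-week levels are a description. Calls at 1 week are counted below only to describe the choice of genes and the lists, and in a list the calls of its members come from the values that chose them. The comparison of three-week with naive libraries was not ordered by the selection, and it alone is read as a test of the members.

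The cells were taken from mouse BM on the surface protein Ly6G, which marks neutrophils. The naive mice bore no tumor. The mice of the other groups had received LL2 cells, a Lewis lung carcinoma line that carries luciferase, by intravenous injection, so that tumors grow in the lung, and were examined after 1 or 3 weeks. The study worked with C57BL/6 mice 6 to 8 weeks old, and each group had 2 libraries of total RNA. A figure legend of the study names 3 samples per group, where the sample titles list 2. The sample titles name a mouse and a replicate number. They do not say whether replicates are different mice or whether cells were pooled, so the spread between libraries may be technical. Total counts were between 11994158 and 14127919 per library, and 3 counts corresponded to 0.212 to 0.25 CPM. The 14 neutrophil markers of a fixed list summed to between 303568 and 325060.0 CPM in the 6 libraries, and none of them was a member.

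Neutrophils mature in the BM from dividing precursors. On the way granule proteins are made in waves, cell cycle genes are shut down, and the mature cell keeps a small amount of messenger RNA. A Ly6G selection recovers a range of maturation stages and can carry along a few basophils, lymphocytes and other marrow cells. In bulk RNA, fewer cells of a type and less RNA per cell cannot be told apart.

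Most members were higher at 1 week by less than 2-fold. The one-week mean over the naive mean had a median of 1.79 and a range from 1.5 to 7.71, and the one-week mean over the three-week mean had a median of 1.86 and a range from 1.5 to 16.0. The smaller of the folds was at least 2 in 46 genes and at least 3 in 8, and it was under 1.6 in 84. Many members were low: the one-week mean was under 10 CPM in 124 genes, between 10 and 100 in 111, and at or over 100 in 20. The lowest one-week library stood at least 1.5 times above the highest of the other 4 libraries in 87 genes and less than 1.1 times above it in 9. The one-week libraries differed from each other by at least 1.5-fold in 20 genes and by less than 1.1-fold in 83.

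At the edge of the rule, Comtd1 had a smaller fold of 1.5 and Caprin2, Tnk1, Dst and Rad51c also lay at the limit. Comtd1 was 19.4 and 19.1 CPM in naive, 28.9 and 29.0 at 1 week and 10.3 and 11.8 at 3 weeks. Just outside it was Mpc2, which carries pyruvate into mitochondria, at 75.95 and 74.2 CPM in naive, 122 and 103 at 1 week and 54.3 and 65.2 at 3 weeks, together with Vac14, Itgb3bp, Hgsnat and Snrpd2. With library sizes corrected by the TMM method, which compares libraries over genes that change little, 138 of the 255 remained members, and with the size factors of DESeq2 128 remained, all of them among the 138. The TMM factors were 1.05 and 0.99 in naive, 1.07 and 1.05 at 1 week and 0.913 and 0.932 at 3 weeks. Column totals therefore put one-week levels higher against three-week levels than TMM scaling did.

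In the model over all 12259 genes tested, all 255 members passed the filter on low counts. At an adjusted p under 0.05 (edgeR's quasi-likelihood test), 138 members were called higher at 1 week than in naive, where 4.23% of all genes tested were, and 152 higher at 1 week than at 3 weeks, against 9.57%. Lower at 1 week were 0 members in either contrast, where 3.76% of genes tested were lower than in naive and 12.9% lower than at 3 weeks. Both calls were met by 100 members, against 1.62%. The rule used these contrasts, so the counts describe the choice of genes. They show also that 155 members did not pass in both contrasts at 2 libraries per group and that 65 passed in neither.

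**Figure D1:**
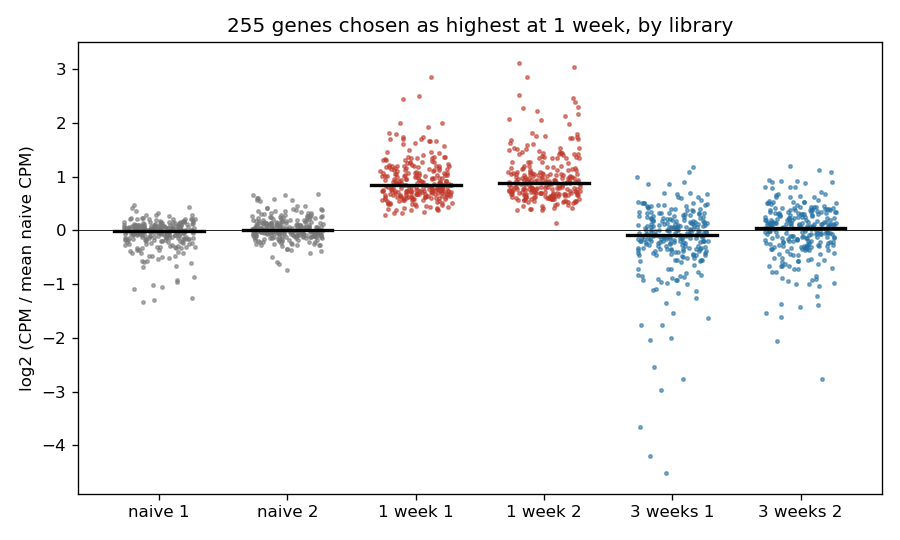
Each point is 1 of the 255 genes in 1 library, plotted as log2 of its CPM over its mean naive CPM (vertical axis), with the 6 libraries on the horizontal axis and black bars at the medians. The one-week libraries lie above the others by the choice of genes, and the three-week libraries have a tail of genes far below naive. Spread cannot be compared between groups here. The naive libraries are centered on their own mean, and the rule limits the one-week libraries from below.

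The members with the clearest separation at 1 week included Prss34, Mcpt8 and Cpa3, which are products of basophils and mast cells. Prg2 and Gata2, placed in the same role, separated less. Prss34 (mast cell protease 11) and Mcpt8 (mast cell protease 8) are serine proteases stored in the granules of mouse basophils, Cpa3 (carboxypeptidase A3) is a protease of mast cells and basophils, Prg2 is the major basic protein of eosinophils, and Gata2 is a transcription factor that these lineages share with progenitors. Prss34 was 16.0 and 14.2 CPM in naive, 42.7 and 46.6 at 1 week and 1.91 and 5.23 at 3 weeks. Mcpt8 was 4.75 and 5.99 CPM in naive, 16.6 and 15.2 at 1 week and 0.92 and 3.15 at 3 weeks. Cpa3 was 1.92 and 1.46 CPM in naive, 5.0 and 5.56 at 1 week and 0.495 and 0.644 at 3 weeks. In all 3 genes the groups did not overlap, with 1 week highest and 3 weeks lowest. Prg2 was 13 and 14.3 CPM in naive, 20.4 and 23.3 at 1 week and 10.3 and 11.2 at 3 weeks, and Gata2 was 3.42 and 2.91, 6.43 and 4.85, and 2.55 and 2.22.

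The promoter windows of Cpa3, Prss34 and Mcpt8 are shown because the 3 genes were highest at 1 week and lowest at 3 weeks, and they were searched for the letters AGATAA, which GATA factors bind. The windows run from 250 bases before to 50 after the start site in RefSeq on GRCm38.p6. The capitals mark AGATAA, and in Cpa3 also the TATA box TATAAA, on either strand. The Cpa3 window is chr3:20242132-20242431 on the minus strand, that of Prss34 is chr17:25298144-25298443 on the plus strand, and that of Mcpt8 is chr14:56085148-56085447 on the minus strand.
Cpa3: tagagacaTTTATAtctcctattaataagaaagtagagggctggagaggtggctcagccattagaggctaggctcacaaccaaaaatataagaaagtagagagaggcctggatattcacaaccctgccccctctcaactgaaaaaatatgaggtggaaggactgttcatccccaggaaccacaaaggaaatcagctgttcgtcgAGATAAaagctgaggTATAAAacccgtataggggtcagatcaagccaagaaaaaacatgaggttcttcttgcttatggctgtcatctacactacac
Prss34: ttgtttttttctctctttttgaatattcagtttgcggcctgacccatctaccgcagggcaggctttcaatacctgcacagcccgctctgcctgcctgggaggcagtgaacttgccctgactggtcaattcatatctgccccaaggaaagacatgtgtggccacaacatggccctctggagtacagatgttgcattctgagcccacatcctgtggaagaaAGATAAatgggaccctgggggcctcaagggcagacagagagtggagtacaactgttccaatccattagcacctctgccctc
Mcpt8: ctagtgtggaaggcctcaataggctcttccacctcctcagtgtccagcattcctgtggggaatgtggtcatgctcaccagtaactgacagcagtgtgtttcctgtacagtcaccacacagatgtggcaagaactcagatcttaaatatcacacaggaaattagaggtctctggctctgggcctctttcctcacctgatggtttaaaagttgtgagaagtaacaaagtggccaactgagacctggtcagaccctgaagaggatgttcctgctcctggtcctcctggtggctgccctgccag
AGATAA began 46 bases before the start site in Cpa3 and 31 bases before it in Prss34, and TATAAA 31 bases before it in Cpa3, with a further TATAAA on the opposite strand 242 bases before it. The Mcpt8 window and the 2 windows of Gata2 held neither set of letters, and Prg2 had no window. TATAAA was in 9.58% of the 261 windows found for 198 members, in 7.15% of the windows of the protein-coding genes tested and in 13.6% of all 32851 windows. The shares were 8.05%, 6.44% and 11.2% for AGATAA.

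Between 3 weeks and naive, which the rule did not order, Prss34 fell by 1.93 ± 0.29 on the log2 scale (SE, adjusted p = 0.000412, edgeR). Mcpt8 fell by 1.26 ± 0.38 (adjusted p = 0.032) and Cpa3 by 1.40 ± 0.45 (adjusted p = 0.0394). Prss34 passed under all 13 other settings, whereas Cpa3 had adjusted p-values between 0.0264 and 0.169 and passed in no fit that left out a library, and Mcpt8 had values between 0.000111 and 0.189 and did not pass without naive replicate 1, naive replicate 2 or three-week replicate 1. Prg2 (-0.20 ± 0.17, adjusted p = 0.449) and Gata2 (-0.26 ± 0.32, adjusted p = 0.622) did not pass.

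The other markers of these lineages did not share one course at 1 week. The list of 16 basophil, eosinophil and mast cell markers held 5 members. Of its 12 genes tested, 4 were called higher, all of them members, and 1 lower at 1 week than in naive. Hdc, the enzyme that makes histamine and the most abundant of the list in reads, was 1525 and 1216 CPM in naive, 911 and 1015 at 1 week and 779 and 839 at 3 weeks. The summed level of the list was 1638 and 1325 CPM in naive, 1079 and 1184 at 1 week and 830.0 and 890.3 at 3 weeks. Hdc made up most of this sum in every library, so the sum does not show the course of the other markers. Among the defining genes of basophils and mast cells, the receptor chain Fcer1a was 0.167 and 0.162 CPM in naive, 0.5 and 1.25 at 1 week and 0.0708 and 0 at 3 weeks, and Ms4a2 was at most 0.214 CPM in any library. The eosinophil genes Epx and Prg3 were at most 0.626 CPM. Ear2, an eosinophil ribonuclease, was 58.1 and 54.1 CPM in naive, 63.9 and 55.6 at 1 week and 18.2 and 10.95 at 3 weeks. How many basophils the selection carried along was not tested.

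**Figure D2:**
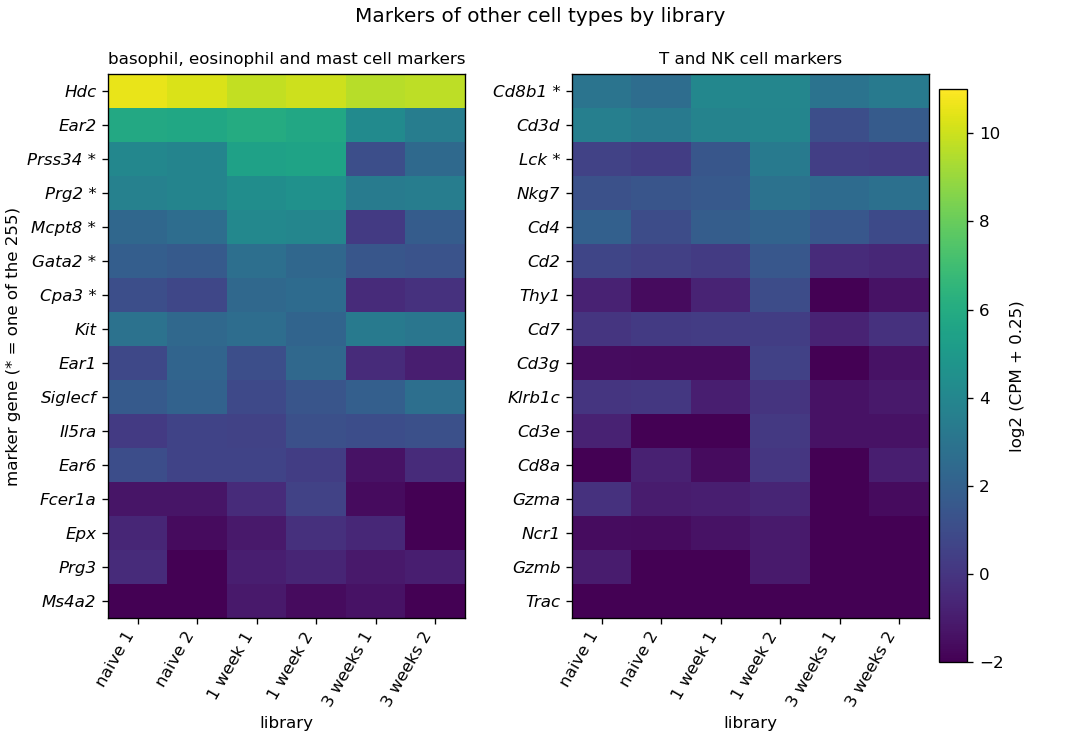
Colors give log2 of CPM plus 0.25 for the markers of basophils, eosinophils and mast cells (left) and of T and NK cells (right), with genes in rows, the 6 libraries in columns and members of the 255 marked by an asterisk. Prss34, Mcpt8 and Cpa3 are brightest at 1 week, Hdc is brightest in naive, and most of the T cell genes are dark throughout.

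The member with the most reads was Lyz2, lysozyme 2, a bactericidal enzyme of neutrophil and monocyte granules. Lyz2 was 8291 and 9910 CPM in naive, 14676 and 14708 at 1 week and 2925 and 3901 at 3 weeks. Without it the members summed to 5938 and 6141 CPM in naive, 10791 and 11164 at 1 week and 6007 and 6298 at 3 weeks. At 3 weeks Lyz2 fell below naive by 1.27 ± 0.15 on the log2 scale (adjusted p = 6.62e-05). Lyz1, its near-identical neighbor copy, was 4.502 and 7.12 CPM in naive, 6.64 and 10.3 at 1 week and 1.56 and 2.29 at 3 weeks, and reads could be split between the copies by the counting.

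Lyz2 is shown with the C/EBP letters TTNNGNAA in capitals, since C/EBP factors govern granule genes. Its window is chr10:117282223-117282522 on the minus strand.
Lyz2: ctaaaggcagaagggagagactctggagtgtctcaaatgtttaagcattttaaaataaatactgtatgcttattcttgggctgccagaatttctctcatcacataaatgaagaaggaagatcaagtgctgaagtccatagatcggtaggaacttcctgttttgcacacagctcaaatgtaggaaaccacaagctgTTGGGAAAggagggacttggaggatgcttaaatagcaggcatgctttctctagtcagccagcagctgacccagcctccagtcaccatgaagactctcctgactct
The match began 55 bases before the start site. The same letters were in 30.3% of member windows, 32.1% of those of protein-coding genes tested and 40.7% of all windows.

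Orm1 and Pglyrp1 took opposite courses at 3 weeks. Orm1 encodes orosomucoid, an acute-phase protein that neutrophils also store. It was 36.8 and 44.4 CPM in naive, 67.2 and 67.8 at 1 week and 10.2 and 15.1 at 3 weeks, and the fall below naive at 3 weeks was 1.54 ± 0.18 on the log2 scale (adjusted p = 6.87e-05). Pglyrp1, a peptidoglycan-binding protein of the secondary granules, was 85.5 and 107 CPM in naive, 336 and 276 at 1 week and 180.1 and 178 at 3 weeks. It was 3.18 times the naive mean at 1 week and remained above naive at 3 weeks by 1.04 ± 0.15 on the log2 scale (adjusted p = 0.000265). These calls, Lyz2 included, passed under all 13 other settings.

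Other antimicrobial and surface genes of myeloid cells lay nearer to naive at 3 weeks. Mpeg1, a pore-forming protein of phagocytes, was 68.5 and 64.3 CPM in naive, 128 and 86.5 at 1 week and 56.3 and 66.3 at 3 weeks. Cd9, a tetraspanin, was 168 and 180.1 CPM in naive, 383 and 269.6 at 1 week and 172 and 198 at 3 weeks. The one-week libraries of both genes were apart from each other by more than the naive libraries were.

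The granule lists were as follows. Of 15 primary granule genes tested, 1 was called higher at 1 week than in naive, and it was Lyz2, which was chosen by that contrast. At 3 weeks 10 were higher and 3 lower than in naive. Of 23 secondary and tertiary granule genes tested, 3 were called higher at 1 week than in naive and 0 lower. They were Pglyrp1, which was chosen by that contrast, Anxa1 and Hk3. Anxa1, which was not a member, was 328 and 320.1 CPM in naive, 828 and 498 at 1 week and 866 and 862 at 3 weeks.

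**Figure D3:**
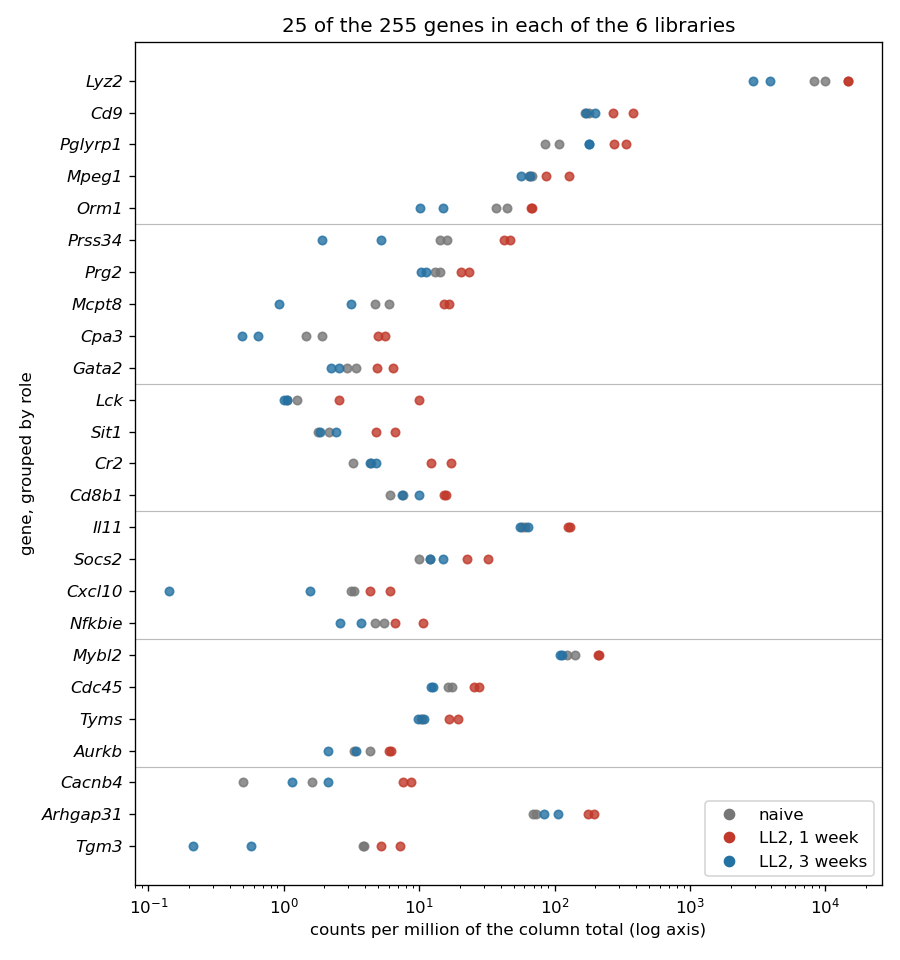
Each row is 1 of 25 members, grouped from top to bottom as myeloid, basophil, lymphocyte, cytokine, cell division and other genes, and each point is 1 library on a log axis of CPM. The red one-week points lie to the right in every row, and the blue three-week points lie left of naive for Lyz2, Orm1, Prss34, Mcpt8, Cpa3, Cxcl10 and Tgm3, among others, and right of naive for Pglyrp1 and Arhgap31.

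Lymphocyte genes made up 10 members. Lck, the kinase that starts T cell receptor signaling, had the largest smaller fold of all members at 5.47, but its one-week libraries disagreed: it was 1.25 and 1.05 CPM in naive, 2.57 and 10.02 at 1 week and 1.06 and 1.0 at 3 weeks. These levels rest on 36 and 128 counts at 1 week and on 13 to 15 counts in the other libraries. Sit1, an adaptor that interacts with signaling enzymes in lymphocytes, was 2.17 and 1.78 CPM in naive, 4.79 and 6.65 at 1 week and 1.84 and 2.43 at 3 weeks. Cr2, complement receptor 2 of B cells, was 3.25 and 4.45 CPM in naive, 12.3 and 17.3 at 1 week and 4.32 and 4.80 at 3 weeks, and Cd8b1 was 7.67 and 6.07, 15.8 and 15.2, and 7.43 and 9.95.

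Most genes that define T cells were near 0. Cd3e, Cd3g and Cd8a were at most 1.17 CPM and Trac was at 0 counts in all libraries, which allows up to 0.212 to 0.25 CPM. Cd3d was the exception, at 11.8 and 10.03 CPM in naive, 13.6 and 14.9 at 1 week and 1.91 and 3.08 at 3 weeks. In each of Cd3e, Cd3g, Cd8a and Thy1 the highest library was one-week replicate 2, the library in which Lck was high. These genes were picked from the list after values were seen, and for Cd8a this was 10 counts against 0 to 4 elsewhere. Cd8b1 was nearly equal in the one-week libraries and did not follow this order. The summed level of the 16 T and NK cell markers was 31.3 and 25.01 CPM in naive, 41.3 and 61.4 at 1 week and 19.8 and 24.5 at 3 weeks. Lck and Cd8b1, which were chosen by their one-week levels, are part of this sum, so its one-week level is a description. Of 12 B-lineage markers tested, 0 were called in either direction between 1 week and naive. At 1 week 11 were higher than at 3 weeks, where 9.57% of all genes tested were. At 3 weeks 12 were lower than in naive, where 9.42% of all genes tested were. None of the B-lineage list was a member. Whether lymphocytes in the selection took part in these levels was not tested.

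Cytokines and their regulators formed a group of 15 genes. Il11, interleukin 11, a cytokine of the IL-6 family, separated well: it was 60.9 and 57.9 CPM in naive, 126 and 130.5 at 1 week and 55.8 and 64.0 at 3 weeks. Ctf2, cardiotrophin 2 of the same family, was 34.1 and 35.3 CPM in naive, 59.8 and 60.6 at 1 week and 34.0 and 42.9 at 3 weeks. Socs2, a feedback inhibitor of cytokine receptors, was 10.005 and 12.1 CPM in naive, 22.7 and 32.2 at 1 week and 12.03 and 15.03 at 3 weeks. All 3 were close to naive again at 3 weeks and did not pass against it (adjusted p from 0.155 to 0.392, edgeR).

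Cxcl10, an interferon-induced chemokine, and Ptgs2, cyclooxygenase 2, had lower three-week levels. Cxcl10 was 3.17 and 3.32 CPM in naive, 6.07 and 4.30 at 1 week and 0.142 and 1.57 at 3 weeks, the last being 2 and 22 counts. At 3 weeks it was below naive by 1.77 ± 0.59 on the log2 scale (adjusted p = 0.0489), and the adjusted p lay between 0.000215 and 0.204 in the other settings. Ptgs2 was 9.92 and 9.23 CPM in naive, 20.1 and 10.5 at 1 week and 1.42 and 6.08 at 3 weeks (-1.21 ± 0.44, adjusted p = 0.0706). Nfkbie and Tnfaip3, inhibitors that the transcription factor NF-kappaB induces, were both low. Nfkbie was 4.75 and 5.50 CPM in naive, 6.65 and 10.6 at 1 week and 2.62 and 3.72 at 3 weeks. Tnfaip3 was 4.84 and 3.88 CPM in naive, 6.50 and 8.77 at 1 week and 3.82 and 6.23 at 3 weeks. They were the only members on a list of 40 tested Toll-like receptor and NF-kappaB genes. Of the 40, 0 were called higher and 4 lower at 1 week than in naive, against 4.23% and 3.76% of all genes tested.

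The windows of Cxcl10 and Nfkbie are shown because NF-kappaB letters occur in both. Capitals mark GGGNNTTCC and, in Cxcl10, the interferon response letters GAAANNGAA. They are chr5:92348840-92349139 on the minus strand for Cxcl10 and chr17:45555450-45555749 on the plus strand for Nfkbie.
Cxcl10: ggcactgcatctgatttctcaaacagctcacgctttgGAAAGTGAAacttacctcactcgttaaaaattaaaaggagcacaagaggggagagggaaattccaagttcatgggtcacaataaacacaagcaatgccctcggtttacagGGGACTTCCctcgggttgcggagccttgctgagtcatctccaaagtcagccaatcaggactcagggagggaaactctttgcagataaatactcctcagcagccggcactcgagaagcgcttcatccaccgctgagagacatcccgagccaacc
Nfkbie: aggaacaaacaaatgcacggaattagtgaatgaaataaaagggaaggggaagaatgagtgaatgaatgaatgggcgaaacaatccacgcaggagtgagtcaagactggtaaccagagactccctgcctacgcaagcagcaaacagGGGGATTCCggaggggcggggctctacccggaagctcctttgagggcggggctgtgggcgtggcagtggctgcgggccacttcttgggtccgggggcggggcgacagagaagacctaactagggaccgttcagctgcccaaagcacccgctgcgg
GGGNNTTCC began 103 bases before the start site in Cxcl10 and 105 bases before it in Nfkbie. It was in 8.81% of member windows, 7.28% of the windows of protein-coding genes tested and 5.82% of all windows. GAAANNGAA was in 6.90%, 7.48% and 8.56%. Of 53 interferon-stimulated genes tested, Cxcl10 was the only member. The list held 0 genes called higher and 1 lower at 1 week than in naive, and 25 lower and 2 higher at 3 weeks.

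Replication and mitosis gave 15 members, among them Mybl2 (B-Myb, a transcription factor of dividing cells), Cdc45 (which unwinds DNA at the fork with the MCM helicase), Tyms (which makes thymidylate), Prim1 (primase) and Aurkb (a mitotic kinase). Mybl2 was 141 and 124 CPM in naive, 212 and 209 at 1 week and 110.1 and 113 at 3 weeks. Cdc45 was 17.51 and 16.4 CPM in naive, 27.8 and 25.6 at 1 week and 12.7 and 12.3 at 3 weeks. Tyms was 10.5 and 10.3 CPM in naive, 19.4 and 16.6 at 1 week and 9.84 and 10.8 at 3 weeks. The naive and one-week libraries of these genes were close within each group.

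Mybl2 and Cdc45 are shown for the letters of the cell cycle factors. Capitals mark the E2F letters GGCGGGA in Mybl2, and in Cdc45 the CCAAT box CCAAT and the cell cycle element CHR, TTTGAA. The Mybl2 window is chr2:163054385-163054684 on the plus strand, and that of Cdc45 is chr16:18811923-18812222 on the minus strand.
Mybl2: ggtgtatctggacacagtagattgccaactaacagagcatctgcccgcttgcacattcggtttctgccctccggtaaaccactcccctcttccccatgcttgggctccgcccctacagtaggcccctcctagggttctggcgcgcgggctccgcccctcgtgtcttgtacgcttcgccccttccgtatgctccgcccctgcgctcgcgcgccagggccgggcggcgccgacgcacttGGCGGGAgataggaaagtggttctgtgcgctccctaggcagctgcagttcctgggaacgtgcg
Cdc45: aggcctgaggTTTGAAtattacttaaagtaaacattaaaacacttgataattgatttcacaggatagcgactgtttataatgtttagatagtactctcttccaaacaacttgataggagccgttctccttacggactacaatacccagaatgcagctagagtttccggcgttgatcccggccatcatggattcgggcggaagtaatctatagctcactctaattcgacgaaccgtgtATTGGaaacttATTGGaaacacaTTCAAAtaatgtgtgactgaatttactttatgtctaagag
GGCGGGA began 13 bases before the start site of Mybl2. In Cdc45, CCAAT lay on the opposite strand from 13 and from 2 bases before the start site, and TTTGAA on the opposite strand from 11 bases after it and on the printed strand from 240 bases before it. GGCGGGA was in 21.1% of member windows, 20.4% of the windows of protein-coding genes tested and 11.3% of all windows. The figures were 39.1%, 38.1% and 37.4% for CCAAT and 9.96%, 12.3% and 17.9% for TTTGAA.

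Few other cell cycle genes were members. Of 52 cell cycle genes tested, 3 were members (Tyms, Aurkb and Cdc45). Between 1 week and naive 3 were called higher (Tyms, Cdc45 and Ube2c) and 3 lower (Top2a, Plk1 and Nusap1), and of the higher ones Tyms and Cdc45 were chosen by that contrast. Top2a, the topoisomerase of dividing cells, was 186 and 149 CPM in naive, 106 and 123 at 1 week and 57.3 and 62.4 at 3 weeks. At 3 weeks 27 were lower and 2 higher than in naive. Among the 15 members, Dnajc9, a histone chaperone, fell below naive at 3 weeks by 0.54 ± 0.13 on the log2 scale (adjusted p = 0.0114, up to 0.0624 in other settings). The other 14 did not pass.

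Ion channels and pumps were 9 members. Cacnb4, a subunit of voltage-gated calcium channels, was 0.50 and 1.62 CPM in naive, 7.64 and 8.69 at 1 week and 2.12 and 1.14 at 3 weeks. It had the largest one-week mean over naive mean, 7.71, and the widest gap to the other libraries, 3.60 times. Piezo2, a mechanically gated channel, was 0.667 and 2.10 CPM in naive, 5.57 and 7.28 at 1 week and 1.98 and 2.43 at 3 weeks. Trpv2, a calcium-permeable channel, was 200.2 and 210.2 CPM in naive, 319 and 329.8 at 1 week and 206 and 223 at 3 weeks. Atp1b1, the beta subunit of the sodium pump, was 3.75 and 1.62 CPM in naive, 6.14 and 4.54 at 1 week and 0.212 and 0.644 at 3 weeks. It fell below naive at 3 weeks by 2.47 ± 0.56 on the log2 scale (adjusted p = 0.00704, and 0.0916 without naive replicate 1).

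Transcription and RNA processing contributed many low members. Among 26 transcription factors and chromatin proteins, Klf5 was 5.42 and 11.98 CPM in naive, 15.6 and 22.9 at 1 week and 9.84 and 7.09 at 3 weeks. The clock genes Per3 and Cry2 were members, and Per3 was 2.58 and 2.35 CPM in naive, 5.93 and 8.61 at 1 week and 2.48 and 3.51 at 3 weeks. Med16, a subunit of the Mediator complex, was 134 and 129 CPM in naive, 213 and 225 at 1 week and 132 and 141 at 3 weeks. Of the 12 enzymes of transfer and ribosomal RNA, Adat1, an adenosine deaminase acting on transfer RNA, was 105 and 105 CPM in naive, 174 and 199.9 at 1 week and 94.4 and 124 at 3 weeks, and Dus2, which makes dihydrouridine, was 47.6 and 39.5, 79.7 and 85.7, and 40.4 and 49.5. Of 44 ribosome biogenesis genes tested, 2 were members (Rrp9 and Rrp7a), with 3 called higher and 0 lower at 1 week than in naive. Of all genes tested, 4.23% were higher and 3.76% lower.

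DNA repair gave 12 members and mitochondria 12. Slx1b, the nuclease subunit that cuts DNA junctions, was 285 and 295 CPM in naive, 458 and 510.2 at 1 week and 286 and 324 at 3 weeks. Ercc4 (XPF), a nuclease of excision repair, was 33.9 and 34.6 CPM in naive, 52.7 and 54.0 at 1 week and 30.6 and 34.9 at 3 weeks, and Rnf168, a ubiquitin ligase at breaks, was 48.1 and 47.8, 81.3 and 89.1, and 44.9 and 47.9. Gpx4, which removes lipid peroxides, was 51.2 and 73.5 CPM in naive, 97.2 and 90.6 at 1 week and 66.7 and 48.5 at 3 weeks. Of 51 tested genes for mitochondrial import, ATP synthase and complexes II and III, 2 were members, Uqcrc1 and Atp5j. At 1 week 8 of the 51 were called higher and 0 lower than in naive, against 4.23% and 3.76% of all genes tested. Any member among the 8 was chosen by that contrast. At 3 weeks 11 were higher and 1 lower than in naive, so calls above naive were not limited to 1 week. Against 3 weeks, 4 were higher and 5 lower at 1 week. Atp5j, ATP synthase coupling factor 6, was 44.1 and 41.0 CPM in naive, 91.9 and 73.8 at 1 week and 53.9 and 52.5 at 3 weeks, and stayed above naive at 3 weeks by 0.47 ± 0.13 on the log2 scale (adjusted p = 0.022, up to 0.124 in other settings).

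Cytoskeletal and adhesion genes and their regulators made up 18 members, and most were low. Itgb4, the integrin beta 4 chain, was 0.834 and 2.35 CPM in naive, 4.86 and 6.65 at 1 week and 2.55 and 2.29 at 3 weeks. Tmod1, which caps actin filaments, was 25.3 and 28.2 CPM in naive, 45.4 and 57.0 at 1 week and 25.7 and 28.9 at 3 weeks. Arhgef12, a guanine nucleotide exchange factor, was 9.505 and 9.31 CPM in naive, 19.8 and 23.95 at 1 week and 11.4 and 11.6 at 3 weeks.

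Enzymes of the endoplasmic reticulum and membranes (13 members) and proteins that process or bind messenger RNA (13 members) had median smaller folds of 1.65 and 1.59. Mbtps2, the site-2 protease that releases sterol regulators, was 93.6 and 108 CPM in naive, 203 and 232 at 1 week and 103 and 132 at 3 weeks. Dhrs7b, a reductase of ether lipid synthesis, was 31.9 and 31.5 CPM in naive, 61.5 and 63.4 at 1 week and 29.6 and 38.1 at 3 weeks. Upf3b, a factor of nonsense-mediated decay, was 75.6 and 67.2 CPM in naive, 122 and 125 at 1 week and 56.4 and 65.5 at 3 weeks. In these genes the one-week libraries were close to each other and well above the rest. A further 83 members were placed in none of these roles, among them Rex1bd at 0.834 and 3.16 CPM in naive, 10.9 and 9.78 at 1 week and 2.97 and 1.00 at 3 weeks.

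Most members were not called in either direction between 3 weeks and naive. At an adjusted p under 0.05, 10 members were higher at 3 weeks than in naive, or 3.92%, against 12% of all genes tested, and 13 were lower, or 5.10%, against 9.42%. Together 23 of the 255 differed (9.02%, against 21.4%), and 59 had an unadjusted p under 0.05. The rule set an upper limit on the naive and three-week levels, so these shares describe the members and are not read as a difference from other genes. With column totals in place of TMM in the same test the split was 3 higher and 16 lower, and with DESeq2 it was 3 and 10. The median log2 fold change of the members was 0.14, where all genes had 0.03.

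By position of the libraries, on the TMM scale, both three-week libraries lay below both naive libraries in 44 members (17.3%, against 27.5% of all genes) and above them in 85 (33.3%, against 32.1%), and the groups overlapped in 126. On column totals they lay below in 62 members (37.3% of all genes) and above in 45 (22.4% of all genes). All 5 basophil, eosinophil and mast cell products lay below naive on both scales. Of the 15 replication and mitosis genes, 6 lay below, 3 above and 6 overlapped. Of the 13 enzymes of the endoplasmic reticulum and membranes, 0 lay below and 7 above.

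**Figure D4:**
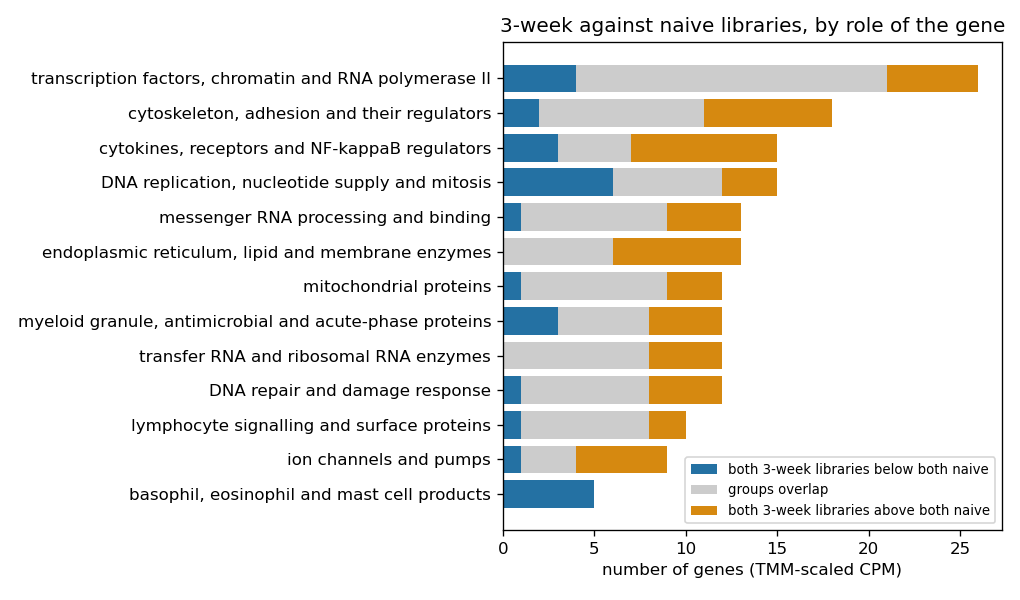
Bars count the members of each role (vertical axis) by where both three-week libraries lay against both naive libraries on TMM-scaled CPM (blue below, grey overlapping, orange above). The 5 basophil, eosinophil and mast cell products all lay below. Enzymes of the endoplasmic reticulum and membranes and enzymes of transfer and ribosomal RNA had 0 below. The remaining roles had genes both below and above, and roles were chosen after values were seen.

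The deepest fall at 3 weeks was that of Tgm3, a transglutaminase. It was 3.92 and 3.88 CPM in naive, 7.29 and 5.24 at 1 week and 0.212 and 0.573 at 3 weeks, the last being 3 and 8 counts. It fell below naive by 3.14 ± 0.46 on the log2 scale (adjusted p = 0.000343). Crip1, a LIM domain protein, was 11.2 and 10.7 CPM in naive, 17.7 and 21.52 at 1 week and 5.03 and 3.58 at 3 weeks, a fall of 1.19 ± 0.22 against naive (adjusted p = 0.00178). Tgm3, Crip1, Lyz2, Orm1, Prss34 and Pglyrp1 were the 6 members that passed under all 13 other settings. The other 17 of the 23 missed the threshold in at least 1 of them, among them Tmem159 (-1.24, adjusted p = 0.0427) and Ptprcap (-1.12, adjusted p = 0.0372).

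Among members that stayed above naive at 3 weeks, Arhgap31, which switches off the small GTPases Cdc42 and Rac1, was 73.0 and 69.8 CPM in naive, 177 and 195 at 1 week and 83.4 and 106 at 3 weeks. The rise at 3 weeks was 0.55 ± 0.13 on the log2 scale (adjusted p = 0.00937, and up to 0.097 in other settings). Exd1 was 6.92 and 8.58 CPM in naive, 20.1 and 22.2 at 1 week and 10.8 and 12.2 at 3 weeks, a rise of 0.71 ± 0.19 at 3 weeks (adjusted p = 0.0181, up to 0.179). Serf2 was 192 and 225 CPM in naive, 831 and 476 at 1 week and 472 and 292 at 3 weeks, a rise of 1.02 ± 0.24 at 3 weeks (adjusted p = 0.00942, up to 0.133). Also called higher, and lost in at least 4 of the other settings each, were Wdr17, Guf1, Ybey, Slc28a3 and Npy1r, with log2 fold changes from 0.49 to 1.02. The lower one-week library of Serf2 stood 1.01 times above its higher three-week library, and 65.4% of its exonic bases lie in exons of other genes, among them Hypk.

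**Figure D5:**
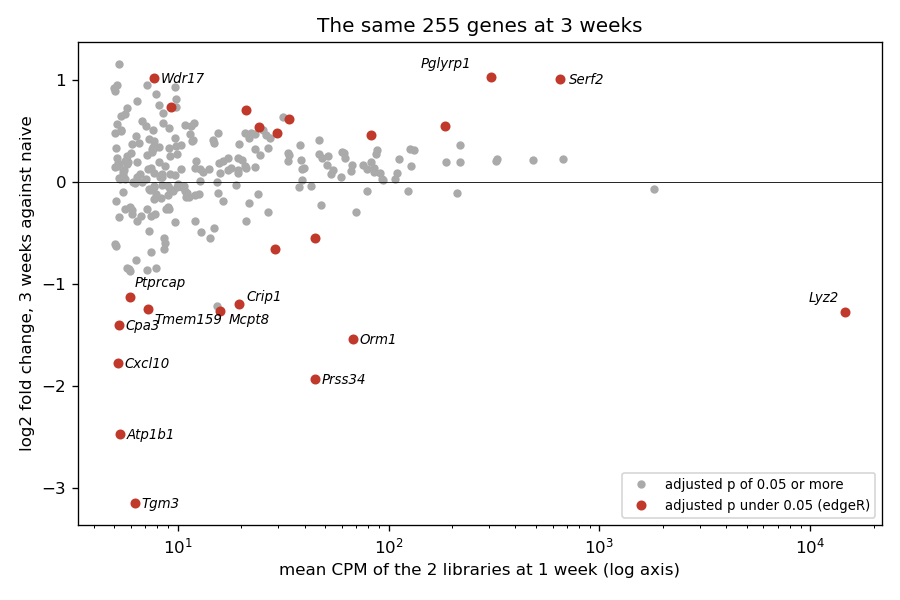
Each point is 1 of the 255 genes, with its mean CPM at 1 week on a log axis (horizontal) and its log2 fold change at 3 weeks against naive (vertical). The 23 genes with an adjusted p under 0.05 are red, and those beyond 1 in either direction are named, from Tgm3 at -3.14 to Pglyrp1 at 1.04.

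The members had medians close to those of other genes in features that the rule did not use. The median exonic length was 4580 bases in members and 4534.5 in the 10960 protein-coding genes tested, the median GC content of the longest transcript 49.9% and 49.4%, and the median number of exon blocks 11 and 10. The members lay on all autosomes, with 23 each on chromosomes 2 and 7 and 20 each on chromosomes 4, 10 and 11, and 5 lay on X. In 19 members (7.45%, against 7.34% of protein-coding genes tested) at least 20% of exonic bases lay in an exon of another gene, and since strand of the libraries was not given in the sources used here, those counts are uncertain. Ptprcap, called lower at 3 weeks, lies wholly within exons of Coro1b and Rps6kb2, Mbtps2 shares 28.4% of its bases with Yy2, and Comtd1 shares 37.3% with Vdac2 and A430057M04Rik.

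Some members were neighbors. Within 100 kb of each other on GRCm38 lay 11 pairs made of 22 members. On chromosome 15 the surface protein genes Ly6i (74979534 to 74983430) and Ly6a (74994877 to 74998031) are 11446 bases apart. Ly6a was 10.8 and 12.5 CPM in naive, 23.8 and 18.2 at 1 week and 8.42 and 7.87 at 3 weeks, and Ly6i was 2.92 and 4.86, 10.003 and 6.57, and 2.90 and 3.44. On chromosome 6 Cd9 and Vwf, a platelet adhesion protein, lie 51982 bases apart, and on chromosome 8 the zinc finger genes Zfp882 and Zfp617 overlap, with 2.91% and 3.44% of their exonic bases shared. Whether reads were shared between them was not tested. The promoter letters searched were in similar shares of member windows and of windows of genes tested, with the widest gap for the ETS letters CCGGAAG at 11.5% against 17.9%, and 8.86% in all windows.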

How the data were processed

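BM neutrophils of 6 libraries (3 groups of 2) were analysed. Per the submitters' processing notes, which name mm10, Bowtie2 and RSEM (version 1.2.31), the authors deposited expected counts per gene, neither scaled nor filtered. The study's methods name an earlier RSEM version and no Bowtie2, and which was used is not settled here. Strand was not given in the sources used here. Expected counts were rounded to whole numbers. Of 38887 identifiers, 37570 matched GENCODE (GRCm38), which gave biotype, position and overlap.

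Members were found on CPM by column total. The members and gene lists were chosen with earlier results of these data known. Counts were tested with edgeR 4.0.16 (R 4.3.3): TMM scaling, a filter on low counts, a model over all 6 libraries with group as the only term, the quasi-likelihood test, and Benjamini-Hochberg adjustment over 12259 genes. Errors are SE of log2 fold changes. DESeq2 1.42.0, other scalings and filters, and fits without each library were alternatives.

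Genes were named by rule: the members with the largest smaller fold or the highest one-week CPM, those leading each list, those with the smallest adjusted p at 3 weeks, those at the edge of the fold limit, and neighbors within 100 kb. Adat1, Arhgef12, Cry2, Dhrs7b, Dnajc9, Dus2, Ercc4, Il11, Klf5, Mpeg1, Mybl2, Prim1, Ptgs2, Rnf168, Socs2, Tmod1, Upf3b, Cd3e, Cd3g, Cd8a, Ear2, Epx, Fcer1a, Ms4a2, Prg3, Thy1, Trac, Ube2c, Guf1, Npy1r, Tmem159, Wdr17, Ybey, the copies and overlapping genes (Lyz1, Hypk, Yy2) and the roles were chosen after values were seen, as were the promoter windows and motif letters. Some members are not reported here. Figures were drawn with matplotlib 3.10.9. Counting limits cover counting error only.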

Additional observations from a re-analysis of the deposited data

Results flagged for a closer look

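Of the 255 genes higher at 1 week, 13 were lower at 3 weeks than in naive at an adjusted p under 0.05 (edgeR), which is 5.10% of the members against 9.42% of all genes tested. On the log2 scale the change from naive at 3 weeks was -3.14 for Tgm3, -2.47 for Atp1b1, -1.93 for Prss34, -1.77 for Cxcl10, -1.54 for Orm1, -1.40 for Cpa3 and -1.27 for Lyz2. It was -1.26 for Mcpt8, -1.24 for Tmem159, -1.19 for Crip1, -1.12 for Ptprcap, -0.65 for Comtd1 and -0.54 for Dnajc9. Both three-week libraries lay below both naive libraries in 44 members on the TMM scale (17.3%, against 27.5% of all genes tested) and in 62 on column totals (24.3%, against 37.3%). The difference between the times was not tested on its own, because the choice of members fixed the one-week side.

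The same selection applied to genes that are not protein-coding, which the choice of members left out, found 73 genes. They were among the genes tested in the model over all genes. They included 22 annotated as antisense, 16 processed pseudogenes and 15 long intergenic RNAs.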

How the results depend on the processing

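The number of genes chosen depended on scaling: 138 of the 255 remained with TMM library sizes, 128 with DESeq2 size factors and 128 with both, a setting added after the data were seen. A fold of at least 2 kept 46, a minimum of 10 CPM gave 131 and a minimum of 1 CPM gave 651. Leaving out 1 library gave 243 to 312 genes, of which 191 to 230 were among the 255. Between 3 weeks and naive 23 of the 255 members were called. Over the same 255, DESeq2 called 13, an adjusted p under 0.01 called 10, and fits without 1 library called 9 to 25, which need not be the same genes, with 9 without naive replicate 1 and 15 without one-week replicate 1 or three-week replicate 1. The split into higher and lower was 10 and 13, against 3 and 16 with library size only (where the median of all genes was -0.11 in place of 0.03), 16 and 9 without naive replicate 2 and 1 and 8 without naive replicate 1. Members called in both one-week contrasts numbered 100, against 65 with DESeq2, 34 at an adjusted p under 0.01, and 28 to 90 without 1 library; the count was 28 without naive replicate 1 or one-week replicate 2, 52 without one-week replicate 1 and 63 without three-week replicate 1. The cause was not tested. Over the 23 called genes, 299 single-gene alternatives kept the direction, and 81 missed the threshold. Same-numbered libraries share only a number (correlations of their deviations 0.01, 0.036 and 0.038). With the replicate number as a block, 26 members were called between 3 weeks and naive and 104 in both one-week contrasts.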

Other observations

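Among the 73 genes that are not protein-coding, the processed pseudogene Gm12191 was 0.750 and 2.43 CPM in naive, 16.9 and 32.6 at 1 week and 3.40 and 0 at 3 weeks. Its counts differed between the one-week libraries, and its three-week replicate 2 was at 0 counts. A processed pseudogene is a near copy of a spliced gene, and how its counts are shared with that gene was not tested.

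The 8 protein-coding genes left out by name were Ndufs3, Mrpl13, Mrps16, Ndufaf3, Hist1h1c, Hist1h4i, Hist1h2bk and Hist1h4n. The linker histone gene Hist1h1c was 589.8 and 521 CPM in naive, 926 and 814 at 1 week and 452 and 660.0 at 3 weeks, with the three-week libraries on either side of naive.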
